A study of Mus musculus with 10 samples.

Results

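The genes described here encode proteins that remodel chromatin or write, erase and read histone marks, measured in mouse kidney RNA. They were taken as every probe set whose single annotated symbol begins with Kdm, Kmt, Smarc, Hdac, Setd, Arid or Brd, or with Chd and a number, or is Atrx, Pbrm1 or Crebbp. Y-linked genes were left out, which removed 3 probe sets of 1 gene. Ep300, which the rule also lists, was not analysed here. This gave 120 of 22690 probe sets on the array, for 67 of 12394 genes. Signals were bright enough to test for 86 of these probe sets, for 60 genes, the rule being a mean signal past the 40th percentile of all probe sets. The other 34 were too dim, and 7 genes (Arid3b, Brdt, Hdac9, Kdm7a, Kmt2d, Setd7 and Smarca1) had no tested probe set.

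Kidneys of male C57/BLACK6 mice, aged 7 weeks and weighing about 20 g, were compared on 10 one-colour arrays in 6 groups. The contralateral kidneys came from mice with ischemia-reperfusion injury (IRI): under diethylether the vessels of the left kidney were clamped for 45 min, and the other, unclamped kidney was taken 3 h after the clamp was released, following injections of 200 µM 4-thiouridine (s4U) with 3H-cytidine at 1 h and 2 h. The normal kidneys came from untreated mice given the same injections at 0 h and 1 h and were removed at 2 h. The labels also name water as a control for s4U without saying which arrays it concerns. No sham operation is described, so effects of anaesthesia and surgery cannot be told apart from those of the injury to the other kidney. Each kidney type gave 3 RNA preparations: total RNA (2 contralateral and 2 normal arrays), the same kind of RNA after linear amplification (2 and 2), and newly transcribed RNA, the fraction that had incorporated s4U in the living animal (1 and 1). The titles call the arrays biological replicates and do not say which of them share a mouse.

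DNA in the nucleus is wrapped around histones, and the position and chemistry of these histones set how readily a gene is read. SWI/SNF, ISWI and CHD complexes use ATP to slide, evict or space nucleosomes, while methyltransferases, demethylases, acetyltransferases and deacetylases add and remove the marks that bromodomain and other reader proteins bind. Most of these factors are found in nearly every cell type of the kidney, and the Kdm enzymes of the JmjC type need oxygen for catalysis.

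The arrays differed in ways that bear on what follows. The median deposited intensity was 18.6 on the contralateral and 70.2 on the normal newly transcribed array, against 26.6 to 59.7 on the other 8. Among these 8 it was 40.4 and 41.6 on contralateral and 55.8 and 59.7 on normal total RNA arrays. On amplified arrays it was 26.6 and 49.8 for contralateral and 41.2 and 43.4 for normal kidneys. The ratio of 3' to 5' Gapdh signal, which rises when labelled RNA is short, was 1.03 and 1.12 on contralateral and 0.938 and 0.972 on normal total RNA arrays. It was 6.23 and 4.39 on contralateral and 5.29 and 4.21 on normal amplified arrays, and 68.9 on the contralateral against 12.7 on the normal newly transcribed array. Kidney markers were present throughout: the 5 proximal tubule genes ranked between the 89.1 and 99.7 percentiles on every array. In amplified RNA these 5 summed to 8710 to 8750 on contralateral and 9560 to 9830 on normal arrays, with 1 called lower. There 3 collecting duct markers summed to 1500 to 1660 on contralateral and 1220 to 1530 on normal arrays, with 1 called higher. The summed level of 7 leukocyte markers was 1760 to 2140 on contralateral and 1470 to 1530 on normal amplified arrays, with 1 of the 7 called higher, and 2530 on the contralateral against 1240 on the normal newly transcribed array. In total RNA it was 1560 to 1800 on contralateral and 1620 to 1820 on normal arrays. On the newly transcribed arrays 3 of the 7 leukocyte markers were at least 2-fold higher. They included the brightest, Csf1r, at 10.94 on the contralateral and 9.80 on the normal array in normalized log2 signal. Ptprc (6.08 on the contralateral and 6.59 on the normal array) and Cd53 (5.46 and 5.81) went the other way. Of other lists, 2 adipose markers summed to 1100 to 1210 on contralateral and 602 to 898 on normal total RNA arrays, where neither passed limma's test, and to 1280 on the contralateral and 347 on the normal newly transcribed array. On the newly transcribed arrays 4 endothelial markers summed to 241 in contralateral and 450 in normal kidneys, with 2 of them at least 2-fold lower, and 2 adrenal markers to 152 in contralateral and 60 in normal kidneys. The endothelial marker Cdh5 went the other way, at 6.66 on the contralateral and 6.20 on the normal array. Every marker probe set had a signal above 0, and the part of other cells in the results below was not tested. In whole kidneys, fewer cells of a type and less RNA per cell cannot be told apart.

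In total RNA, 4 of the 86 tested chromatin probe sets rose in contralateral kidneys and 0 fell. The 4 were Atrx, a helicase that deposits a histone variant in heterochromatin, Pbrm1, the bromodomain subunit that marks one form of SWI/SNF, and the histone demethylases Kdm5a and Kdm6a. The background was 1.58% of all 13575 tested probe sets called higher and 0.339% called lower (limma, Benjamini-Hochberg adjusted p under 0.05), beside 4.65% of the chromatin probe sets called higher. At an unadjusted limma p under 0.05, 13 were higher and 7 lower. The median difference was 0.05 over the members and -0.02 over all tested probe sets, on the log2(intensity + 11.8) scale after quantile normalization, which understates the changes of dim genes.

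Atrx (1420947_at) read 6.30 and 6.12 on contralateral arrays and 5.18 and 4.77 on normal arrays, in normalized log2 signal, a difference of 1.23 ± 0.25 (SE, n = 2 each; limma adjusted p = 0.0331). Kdm5a (1452360_a_at) read 6.82 and 6.79 on contralateral and 6.05 and 5.71 on normal total RNA arrays, a difference of 0.93 ± 0.18 (adjusted p = 0.026). In both genes the contralateral arrays lay above both normal arrays. With 2 arrays a group this adds little to the call, since members that were not called, such as Chd8, were separated too. Kdm6a (1427672_a_at) read 7.08 and 7.25 on contralateral and 6.35 and 6.15 on normal arrays, a difference of 0.91 ± 0.16 (adjusted p = 0.016). Pbrm1 (1427266_at) read 7.51 and 7.26 on contralateral and 6.61 and 6.43 on normal arrays, a difference of 0.86 ± 0.16 (adjusted p = 0.0249). The other tested probe sets of Pbrm1 and Kdm6a were not called. The count of 4 depended on single arrays: it was 0 without the first or the second contralateral total array or without the second normal total array, and 1 without the first or the second normal amplified array, which enters the shared estimate of the spread.

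In amplified RNA the direction was the other way. Of the 86 tested chromatin probe sets, 16 (of 14 genes) fell in contralateral kidneys and 1 rose, so that 18.6% were called lower where the background was 6.19% of all tested probe sets, and 1.16% were called higher where the background was 4.16%. The median difference was -0.08 over the members and 0.02 over all tested probe sets. Among the 16 were 7 of 20 tested SWI/SNF probe sets, 3 of 14 for ISWI, CHD and related helicases, 2 of 16 for methyltransferases, 2 of 8 for bromodomain readers, 1 of 14 for demethylases and 1 of 4 for other ARID proteins. None of the 9 deacetylase probe sets and not the 1 acetyltransferase, Crebbp, was called by limma in amplified RNA; at an unadjusted p under 0.05 the deacetylases gave 0 higher and 1 lower, and Crebbp was called in neither direction. With so few probe sets in these 2 roles, the absence of calls is not a result about them. The count of 16 rests in part on single arrays, since it was 9 without the first and 8 without the second normal amplified array.

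Smarca2 and Smarca4 are the alternative ATPase motors of SWI/SNF. Smarca2 (1452333_at) read 5.45 and 5.70 on contralateral and 7.23 and 7.65 on normal amplified arrays, a fall of log2 -1.87 ± 0.18 (adjusted p = 0.00011). Its other tested probe set (1430526_a_at) read 8.0 and 7.89 on contralateral and 8.64 and 8.54 on normal arrays, a smaller fall of log2 -0.64 (adjusted p = 0.0109). Both tested probe sets of Smarca2 were thus called lower. Smarca4 (1426805_at) read 4.43 and 4.77 on contralateral and 5.74 and 5.77 on normal arrays, a difference of -1.16 (adjusted p = 0.00223), while its brighter probe set (1426804_at) read 8.29 and 8.48 on contralateral and 8.38 and 8.24 on normal arrays, a difference of 0.07 that did not pass the test. The signal of the 1 Smarca4 probe set that fell was near the low end of the array: its deposited intensities were 6.2 and 17.1 on contralateral and 40.2 and 43.6 on normal arrays.

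Pbrm1, Arid2 and Smarce1 are subunits that give SWI/SNF complexes their targeting and DNA-binding parts. Pbrm1 (1427266_at) read 5.70 and 5.45 on contralateral and 7.16 and 7.19 on normal amplified arrays, a difference of -1.60 ± 0.16 (adjusted p = 0.000194), which is opposite in sign to its call in total RNA. A second Pbrm1 probe set (1426877_a_at) had a fall of log2 -1.20 (adjusted p = 0.00077), and the third (1426878_at) differed by -0.19 and was not called. Arid2 (1426525_at) differed by -0.76 (adjusted p = 0.00616) and Smarce1 (1422676_at) by -0.65 (adjusted p = 0.028). Arid2 was seen at 6.98 and 6.75 on contralateral and at 7.72 and 7.53 on normal arrays. The remaining 13 tested SWI/SNF probe sets were not called.

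Among the other remodellers, Chd4, the motor of the NuRD corepressor complex, fell on 1 of 2 tested probe sets in amplified RNA. Its probe set 1436343_at read 4.03 and 4.90 on contralateral and 6.42 and 6.56 on normal arrays, a difference of -2.03 ± 0.29 (adjusted p = 0.00128), with deposited intensities of 2.7 and 20.1 on contralateral and 74 and 87.4 on normal arrays. At such low intensities its size depends on the pseudocount, being -2.69 with the 10th percentile and -1.19 with the median in place of the 25th percentile. The second Chd4 probe set (1451295_a_at), at 7.23 and 7.28 on contralateral and 7.30 and 7.19 on normal arrays, differed by 0.01. Atrx (1420947_at) read 4.43 and 4.91 on contralateral and 6.13 and 6.58 on normal arrays, a difference of -1.69 ± 0.25 (adjusted p = 0.00164), again opposite to total RNA. Its deposited intensities were 6.2 and 20.2 on contralateral and 57.7 and 88.5 on normal arrays, and its difference ran from -2.16 to -1.02 over the alternatives. The other Atrx probe sets were too dim to test. Their contralateral and normal amplified means were 4.95 and 4.85 (1420945_at), 4.83 and 5.85 (1420946_at), 4.5 and 4.38 (1420948_s_at), and 4.39 and 6.11 (1450051_at). Smarca5, the ISWI motor, fell on 1 of its 3 tested probe sets (1424207_at, log2 -0.93, adjusted p = 0.0465), and this was the call, of the 17 in amplified RNA, that held in the fewest alternative analyses.

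Writers, erasers and readers of histone marks gave fewer calls. Kmt2e (1427236_a_at), a member of the trithorax-related family, read 5.62 and 5.98 on contralateral and 7.21 and 7.44 on normal amplified arrays, a difference of -1.52 ± 0.27 (adjusted p = 0.00468), while its probe set 1434704_at differed by 0.18. Kmt2a, a histone methyltransferase of the trithorax family, fell by 0.56 on 1 probe set (1427283_at, adjusted p = 0.0195). Kdm5a, whose enzyme removes methyl groups from histone H3, read 5.60 and 5.87 on contralateral and 6.70 and 6.65 on normal arrays, a difference of -0.93 (adjusted p = 0.00656). The acetyl-lysine readers Brd3 (1460328_at, difference -1.30, adjusted p = 0.00606) and Brd2 (1437210_a_at, difference -0.88, adjusted p = 0.00313) fell on 1 probe set each. Brd2 read 5.63 and 5.64 on contralateral and 6.59 and 6.43 on normal arrays, and its probe set 1423502_at differed by -0.04.

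Kdm3a (1426810_at), a hypoxia-inducible demethylase, was the 1 chromatin probe set that rose in amplified RNA. It read 7.69 and 7.86 on contralateral and 6.95 and 6.89 on normal arrays, a difference of 0.86 ± 0.14 (adjusted p = 0.0033). In total RNA it read 7.36 and 7.13 on contralateral and 6.78 and 6.69 on normal arrays, a difference of 0.51 that did not pass (adjusted p = 0.12). The newly transcribed arrays ran the other way, at 6.87 on the contralateral and 7.55 on the normal array.

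**Figure D1:**
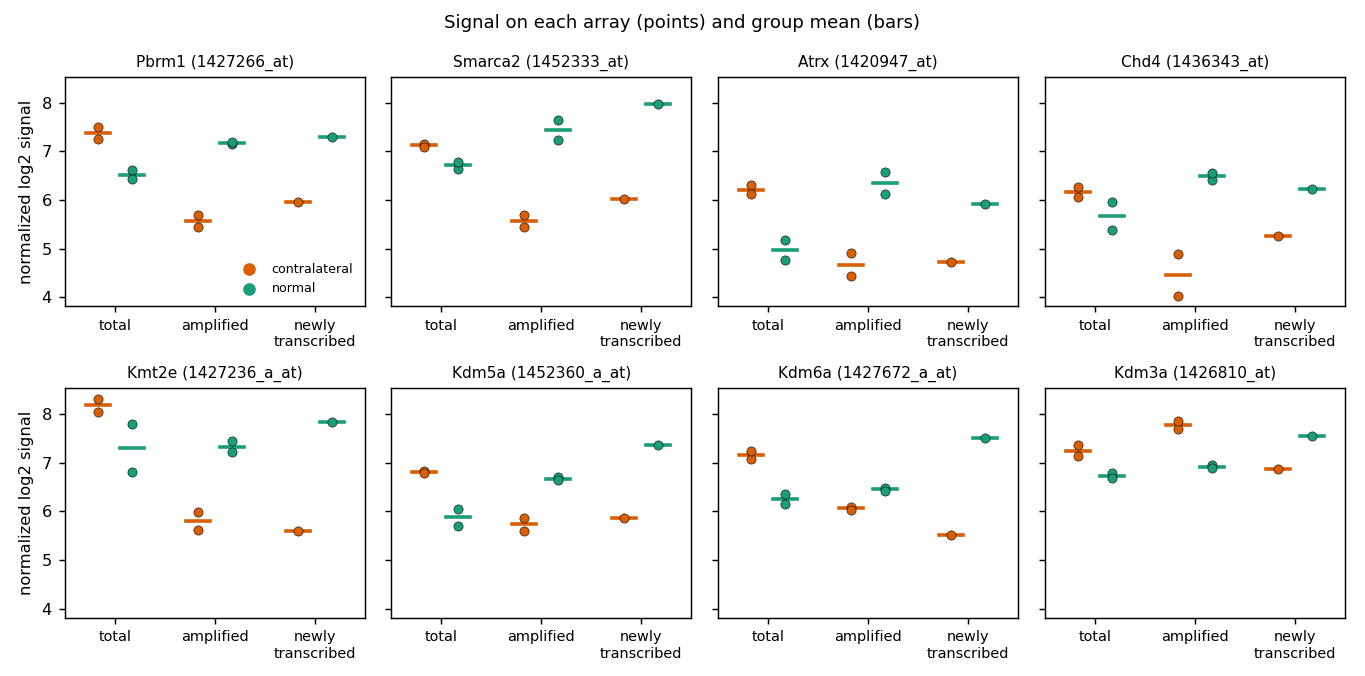
Normalized log2 signal (vertical axis) of 8 chromatin probe sets on each array (points) with the group mean (bars), contralateral left of normal within each RNA preparation. Atrx and Pbrm1 sit above normal in total RNA and below normal in amplified and newly transcribed RNA, while Kdm3a sits above normal in amplified RNA.

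**Figure D2:**
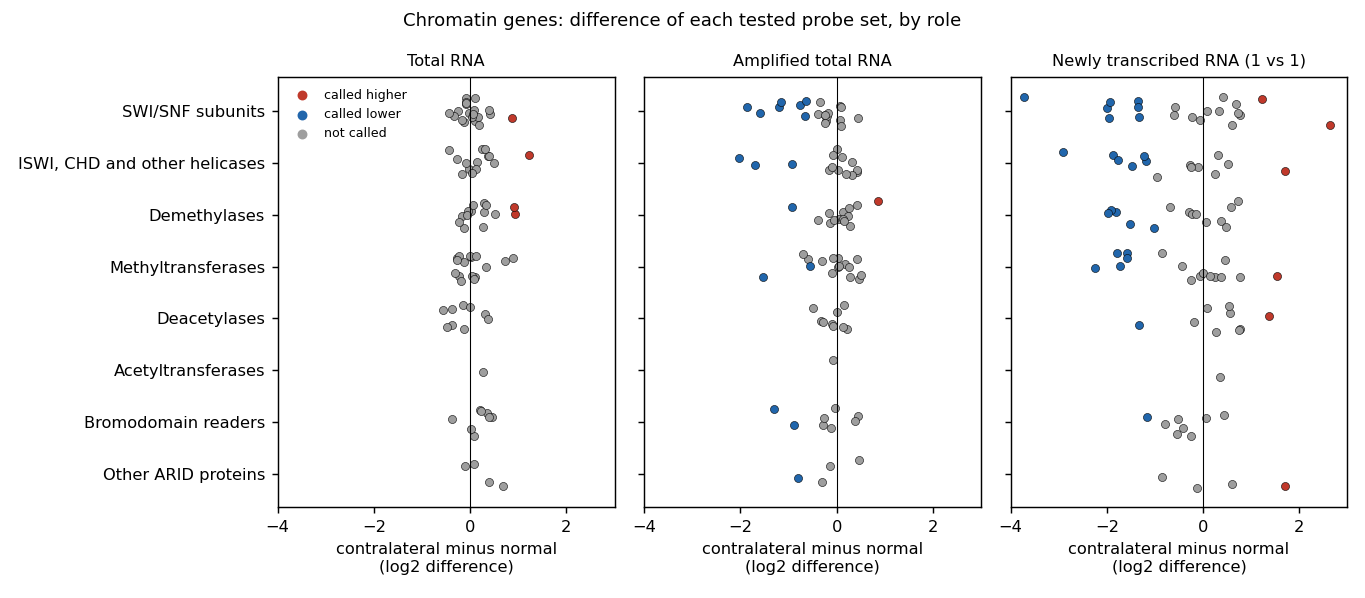
Contralateral minus normal difference (log2, horizontal axis) of each tested chromatin probe set, by role (rows) and RNA preparation (panels). Of the 16 probe sets called lower in amplified RNA, 7 are SWI/SNF subunits (7 of 20 tested) and the others are spread over other roles. None is among the 9 deacetylase probe sets, which are too few for that absence to be a result. The newly transcribed panel compares 1 array with 1, and colour there marks a difference of at least 2-fold.

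The difference between the total and the amplified effect was tested directly in the same fit. For 13 of 86 chromatin probe sets (12 genes) the contralateral-minus-normal difference was lower in amplified than in total RNA, and for 0 it was higher, which is 15.1% where the background was 3.81% lower and 0.648% higher. At an unadjusted limma p under 0.05 the members gave 19 lower and 4 higher. Atrx (1420947_at) stood at -2.92 ± 0.35 (limma adjusted p = 0.000915), a value that ran from -3.69 to -1.77 over the alternatives. Chd4 (1436343_at) was at -2.51 ± 0.41, Pbrm1 (1427266_at) at -2.46 ± 0.23 and Kmt2e (1427236_a_at) at -2.40 ± 0.38. Of the 16 probe sets that fell in amplified RNA, 14 had a difference above 0 in total RNA, against 36 of the other 70 tested members. The same share among all 840 probe sets called lower in amplified RNA was not counted. Total and amplified RNA were measured on different arrays, which may come from the same mice.

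A pair of opposite calls, up in contralateral total RNA and down in amplified RNA, was given to 41 of all 13575 tested probe sets. Among the 86 tested members 3 had it, for Atrx, Kdm5a and Pbrm1. Of all 13575, 93 were called higher in both preparations and 15 lower in both, and of the 86 members 0 and 0. With shares this small over all probe sets, the absence of members there is not a result about them. The 3' to 5' ratios were larger on amplified than on total RNA arrays, and within the amplified arrays they overlapped between the kidneys. There Gapdh gave 6.23 and 4.39 on contralateral and 5.29 and 4.21 on normal arrays. Actb gave 8.27 and 7.34 on contralateral and 7.92 and 8.29 on normal amplified arrays. On total RNA arrays the ratios did not overlap between the kidneys. Gapdh gave 1.03 and 1.12 on contralateral and 0.938 and 0.972 on normal total RNA arrays, and Actb 1.7 and 1.85 on contralateral and 1.3 and 1.43 on normal ones. The part of these ratios in the result was not tested.

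**Figure D3:**
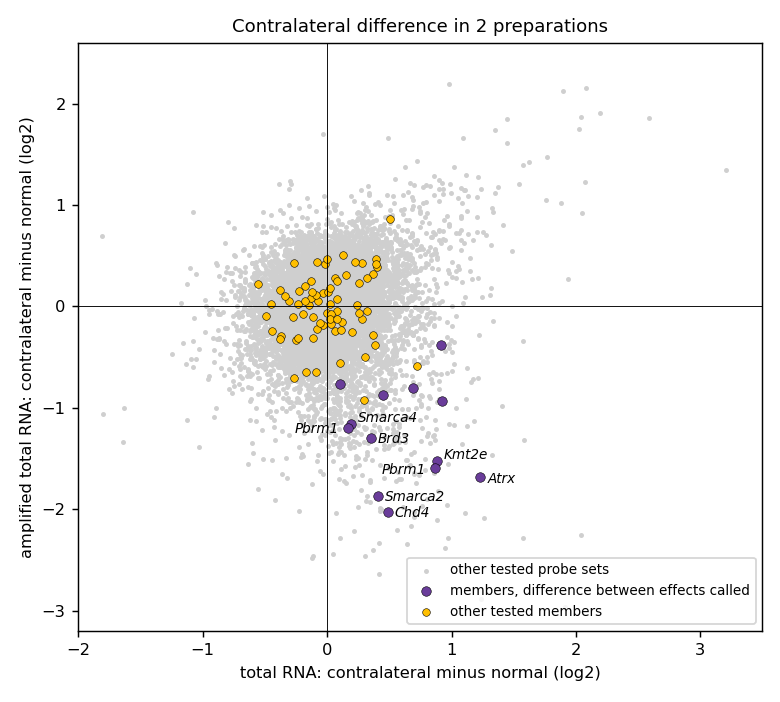
Contralateral minus normal difference in amplified RNA (vertical axis, log2) against that in total RNA (horizontal axis, log2) for every tested probe set (grey) and the 86 chromatin members. The 13 members called in the test of the difference between effects lie to the right of 0 in total RNA and below 0 in amplified RNA.

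Probe sets of one gene often differed in their calls in amplified RNA. Of 22 chromatin genes with several tested probe sets, 9 had some but not all called lower (Brd2, Brd3, Chd4, Kmt2a, Kmt2e, Pbrm1, Smarca4, Smarca5 and Smarce1), and Smarca2 had all called. The share of genes of all kinds with such a split was not counted. A split call need not be a disagreement, since the Smarce1 probe sets stood at -0.65 and -0.25. The gap between a gene's lowest and highest difference had a median of 0.48 over the members and 0.33 over 2861 genes of all kinds, and it reached 1 log2 unit in 27.3% of the members and 9.16% of all genes. In total RNA the medians were 0.24 over the members and 0.25 over all genes, and the gap reached 1 in 0 of 22 members and in 1.47% of all genes. On the newly transcribed arrays the medians were 0.94 over the members and 1.07 over all genes, and the gap reached 1 in 40.9% of the members and 52.7% of all genes. Taking only the brightest probe set of each gene, 7 of 60 member genes (11.7%) were called lower in amplified RNA, where the background was 4.13% of 8300 genes. Taking the mean of a gene's tested probe sets, 13 (21.7%) were, where the background was 5.05%. The place of each probe set along its transcript was not used here.

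**Figure D4:**
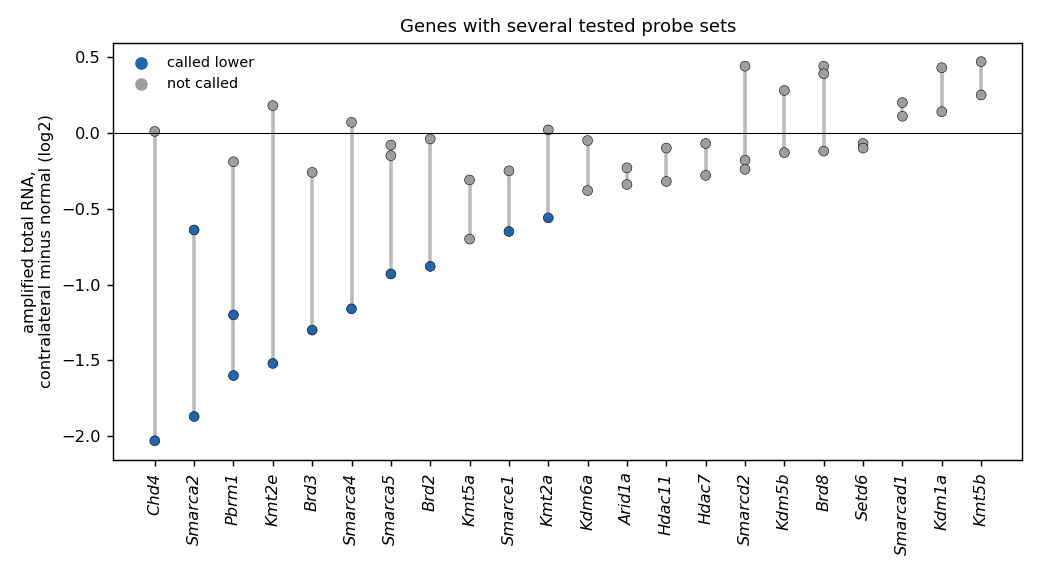
Contralateral minus normal difference in amplified RNA (vertical axis, log2) of each tested probe set (points) of the 22 chromatin genes that have several, joined by a line within a gene. In Chd4 the gap between probe sets is 2.03 log2 units, and in 9 genes only some points are called lower.

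The sequence just before the start site is shown for 4 of these genes, chosen after their values were seen: Pbrm1, Smarca2 and Atrx, which fell together in amplified RNA, and Kdm3a, which rose. Each line gives the 250 bases before the start from RefSeq (GRCm38.p6), read 5′ to 3′ on the gene's own strand, with CG dinucleotides in capitals. They lie at chr14:31018888-31019137 (plus strand) for Pbrm1, chr19:26604910-26605159 (plus strand) for Smarca2, chrX:105929373-105929622 (minus strand) for Atrx and chr6:71632918-71633167 (minus strand) for Kdm3a.
Pbrm1: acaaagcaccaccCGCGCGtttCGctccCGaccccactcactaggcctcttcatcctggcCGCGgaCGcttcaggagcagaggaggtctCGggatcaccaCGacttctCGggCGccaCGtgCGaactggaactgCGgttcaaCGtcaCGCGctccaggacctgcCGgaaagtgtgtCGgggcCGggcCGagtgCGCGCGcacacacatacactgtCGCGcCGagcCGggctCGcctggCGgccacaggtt
Smarca2: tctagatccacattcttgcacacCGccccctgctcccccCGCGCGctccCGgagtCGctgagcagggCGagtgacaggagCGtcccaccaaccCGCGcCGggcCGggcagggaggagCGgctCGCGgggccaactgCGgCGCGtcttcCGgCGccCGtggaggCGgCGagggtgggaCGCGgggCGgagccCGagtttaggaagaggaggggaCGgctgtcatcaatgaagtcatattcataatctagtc
Atrx: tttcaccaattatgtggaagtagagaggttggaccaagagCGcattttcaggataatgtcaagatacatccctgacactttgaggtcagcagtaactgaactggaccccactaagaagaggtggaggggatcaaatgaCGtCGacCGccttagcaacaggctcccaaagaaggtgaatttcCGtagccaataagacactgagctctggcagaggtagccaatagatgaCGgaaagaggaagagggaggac
Kdm3a: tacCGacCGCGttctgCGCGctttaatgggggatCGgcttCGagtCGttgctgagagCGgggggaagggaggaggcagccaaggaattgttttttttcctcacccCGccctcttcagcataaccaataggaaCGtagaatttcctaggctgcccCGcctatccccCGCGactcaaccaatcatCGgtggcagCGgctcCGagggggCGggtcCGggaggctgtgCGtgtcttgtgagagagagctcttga
The window of Atrx holds 6 CG dinucleotides, that of Pbrm1 31, that of Smarca2 28 and that of Kdm3a 20. RefSeq entries matched 55 of the 67 member genes, the first entry of a gene being used. Their median was 18 CG dinucleotides in these 250 bases, with a range of 0 to 56, against 6 over 27025 genes of the table. Motifs were searched on both strands. GGGCGG was present in 69.1% of the members and 32.9% of all, and TATAAA, the core of a TATA box, in 5.45% of the members and 13.0% of all. CCAAT was present in 38.2% of the members and 34.5% of all, and ACGTG, one form of the core of a hypoxia response element, in 14.5% of the members and 16.6% of all. Of the 4 windows shown, that of Pbrm1 holds ACGTG and those of Kdm3a, Smarca2 and Atrx do not. The other form of this core, GCGTG, was not counted over the genes. It can be read in the Kdm3a window shown and, on the opposite strand, in that of Pbrm1. A match describes the letters in this window and no binding.

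Newly transcribed RNA was measured on 1 array per kidney type, so the differences have no replicate check and no test. At least 2-fold lower on the contralateral array were 25 of 86 chromatin probe sets, or 29.1% where the background was 18.5% of all tested probe sets, and at least 2-fold higher were 6, or 6.98% where the background was 14.3%. The median difference was -0.21 over the members and 0 over all probe sets. The split moves with the scaling. With arrays scaled to their medians, 29 members were lower and 4 higher, against 24.0% and 9.36% of all probe sets, and the median of all probe sets shifted to -0.21. With scaling to the 75th percentile, 20 members were lower and 9 higher, against 12.5% and 22.6% of all, and the median of all shifted to 0.29. Under these 3 scalings the members' median lay below that of all probe sets.

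Pbrm1 was at least 2-fold lower on all 3 tested probe sets of the newly transcribed arrays. Its probe set 1426877_a_at read 4.96 on the contralateral and 8.68 on the normal array, a difference of -3.72 from deposited intensities of 9.1 on the contralateral and 689.6 on the normal array, and 1426878_at differed by -1.95. Smarca5 was lower on all 3 of its probe sets, with 4.07 on the contralateral and 6.98 on the normal array for 1424207_at, a difference that ran from -3.88 to -1.74 over the alternatives. Both probe sets of Smarca2, of Kdm6a and of Kmt5a, the last a methyltransferase of histone H4, were also at least 2-fold lower. Smarca2 differed by -2.0 (1430526_a_at) and -1.94 (1452333_at), and Kdm6a by -1.98 (1427672_a_at) and -1.92 (1427235_at).

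Kmt2e (1427236_a_at) read 5.59 on the contralateral and 7.83 on the normal newly transcribed array. Of the 16 probe sets that fell in amplified RNA, 14 were lower by some amount in newly transcribed RNA, against 36 of the other 70 tested members. At least 2-fold lower were 8 of the 16, against 17 of the other 70. The same shares were not counted among all 840 probe sets called lower in amplified RNA, so they are not shown to be particular to chromatin genes. Smarca4 (1426805_at) was an exception, at 6.40 on the contralateral and 5.17 on the normal array. The other probe sets at least 2-fold higher on the contralateral array were Smarcd2 (1426192_at, 2.63), a SWI/SNF subunit, Arid5a (1.71), Chd8 (1.70), the methyltransferase Setd1a (1.53) and the deacetylase Hdac11 (1454803_a_at, 1.36). The Smarcd2 probe set 1426192_at had deposited intensities of 35.1 on the contralateral and 4.9 on the normal array, below the added 11.8, and its difference ran from 1.47 to 3.74 over 4 alternatives. The 2 brighter tested Smarcd2 probe sets read 10.64 on the contralateral and 10.21 on the normal array (1448400_a_at), and 8.43 on the contralateral and 8.67 on the normal array (1448401_at).

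The preparations themselves were compared within both kidney types. Amplified against total RNA gave 27 chromatin probe sets higher and 32 lower, or 31.4% and 37.2% where the background was 34.1% and 28.4% (limma adjusted p under 0.05). This split also depends on the scaling: with median scaling it was 28 higher and 22 lower among members and 41.2% and 21.5% of all, and with quantile normalization within each preparation 29 and 23 among members and 42.2% and 22.2% of all, with the median of all probe sets at 0.17 in both, against 0.04. Brd2 (1437210_a_at) had the largest deficit after amplification, at 5.63 and 5.64 on contralateral amplified and 8.83 and 8.85 on contralateral total RNA arrays, a difference over both kidney types of -2.55 ± 0.10 (adjusted p = 1.22e-08). Smarca4 (1426805_at, -1.99 ± 0.13) and Arid1a (1417440_at, -1.79 ± 0.12), the DNA-binding subunit of another SWI/SNF form, followed. Smarcd2 (1448400_a_at) gained 1.75 ± 0.10 (adjusted p = 1.21e-07), and the methyltransferase Setd6 (1428798_s_at, 1.60 ± 0.097) and Crebbp (1.08 ± 0.11) were also higher. Among the probe sets that fell in contralateral amplified RNA, those of Brd2, Brd3 (1460328_at, -1.48) and Smarca4 also lost signal on amplification in both kidney types. Others gained signal in normal kidneys and lost it in contralateral ones. From total to amplified RNA, Atrx (1420947_at) went from 4.98 to 6.36 in normal and from 6.21 to 4.67 in contralateral kidneys. Smarca2 (1452333_at) went from 6.71 to 7.44 in normal and from 7.12 to 5.57 in contralateral kidneys. How loss on amplification bears on the contralateral fall was not tested.

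Newly transcribed against amplified RNA gave 27 chromatin probe sets higher and 6 lower, or 31.4% and 6.98% where the background was 25.4% and 29.9%. The median difference was 0.18 over the members and -0.01 over all tested probe sets. By role, demethylases gave 5 of 14 higher and 0 lower, SWI/SNF subunits 7 of 20 higher and 2 lower, and methyltransferases 4 of 16 higher and 2 lower. At an unadjusted limma p under 0.05 all members gave 33 higher and 9 lower. The lone newly transcribed array of each kidney type was assumed to vary like the other groups.

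Crebbp, a histone acetyltransferase and coactivator, was higher in newly transcribed than in amplified RNA. It read 9.28 on the contralateral and 8.92 on the normal newly transcribed array, against 7.66 and 7.27 on contralateral and 7.57 and 7.5 on normal amplified arrays, a difference of 1.60 ± 0.13 (adjusted p = 2.28e-06). All newly transcribed values lay above all amplified ones, and the amplified values lay in turn above the 6.58 and 6.51 of contralateral and the 6.35 and 6.23 of normal total RNA. Chd8, a CHD remodeller, exceeded amplified RNA by 1.53 ± 0.10 (adjusted p = 6.23e-07), from 10.02 on the contralateral and 8.32 on the normal newly transcribed array. The 6 lower probe sets were those of Setd6 (1428798_s_at, -1.09), Hdac6 (-0.83), Setd3 (-0.74), Smarca4 (1426804_at, -0.47), Pbrm1 (1426877_a_at, -0.41) and Smarca5 (1424206_at, -0.35).

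**Figure D5:**
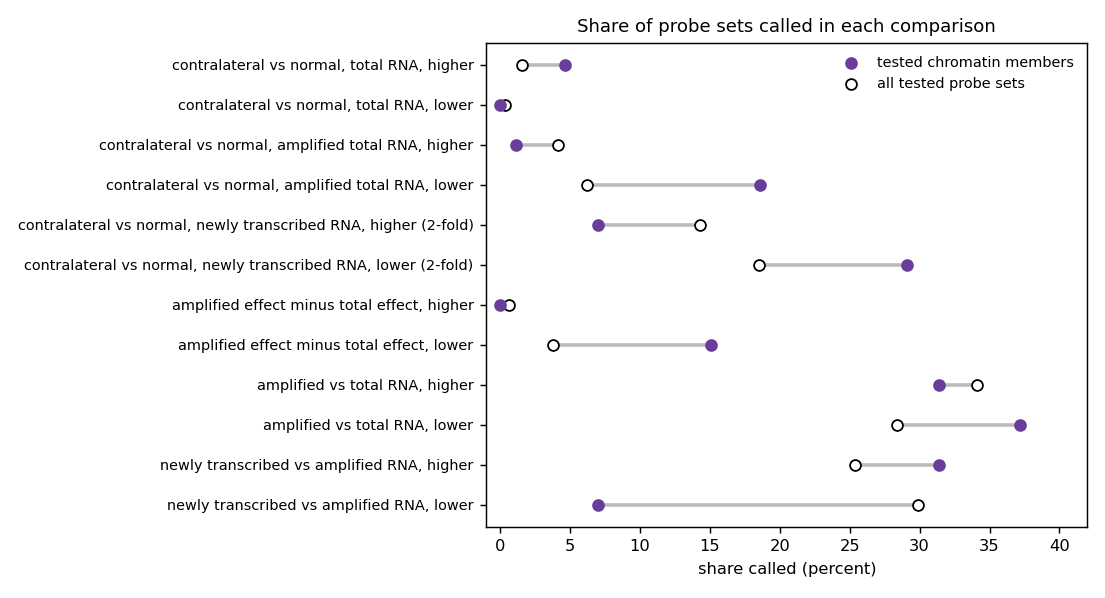
Share of probe sets called (horizontal axis, percent) in each comparison and direction, for the 86 tested chromatin members (filled) and all 13575 tested probe sets (open). Members stand at 18.6% against 6.19% for lower in contralateral amplified RNA, and at 6.98% against 29.9% for lower in newly transcribed than in amplified RNA.

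The deacetylases, which remove acetyl groups from histones, had 9 tested probe sets of 7 genes. None was called by limma between contralateral and normal kidneys in total RNA (unadjusted p under 0.05 in 0 higher and 4 lower) or in amplified RNA. Over all tested probe sets 1.58% were called higher and 0.339% lower in total RNA, and 4.16% and 6.19% in amplified RNA. With 9 probe sets, the absence of calls is not a result about the deacetylases. Hdac1, a catalytic subunit of NuRD and other corepressors, read 7.45 and 7.86 on contralateral and 7.94 and 8.13 on normal total RNA arrays. Hdac3 read 6.89 and 7.33 on contralateral and 7.64 and 7.69 on normal total RNA arrays. Neither difference passed the test (limma adjusted p = 0.305 for Hdac1 and 0.159 for Hdac3). In amplified RNA the contralateral difference was 0.16 for Hdac1 and 0.22 for Hdac3, also not called. On the newly transcribed arrays it was 0.56 for Hdac1 and 0.53 for Hdac3, with no test. On the newly transcribed arrays 1 deacetylase probe set was at least 2-fold lower, that of Hdac2 at 5.24 on the contralateral and 6.58 on the normal array, and 1 of Hdac11 was at least 2-fold higher.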

How the data were processed

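The deposited values are linear signal intensities, 1 for every probe set on each array. How the authors summarised or scaled these intensities, and whether they made detection calls, is not stated per the labels, so nothing is said of background. Per the labels' protocols, RNA was purified on columns, reverse transcribed, linearly amplified and labelled with biotin by a T7 strategy, although not every title names amplified RNA. To each intensity 11.8 was added (the 25th percentile), log2 was taken, and arrays were quantile normalized. After 64 control probe sets were set aside, 13575 of 22690 probe sets with a mean above the 40th percentile were tested.

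Tests were run with limma 3.58.1 (R 4.3.3), fitting 6 group means over the 10 arrays (4 residual degrees of freedom), an intensity trend, and Benjamini-Hochberg adjustment over all tested probe sets at 0.05. The same fit gave the difference between the amplified and the total effect. Newly transcribed RNA has 1 array per kidney type, so its contralateral difference is a value without a test, counted from 2-fold up. Precision is limited by having 2 arrays or fewer per group. The fitting was tested on simulated data.

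Of the probe sets, 20393 have 1 annotated symbol, 691 have several and 1606 are not listed in the platform annotation and are unnamed here; a RefSeq table changed 0 symbols. The members, role groups and lists were chosen with earlier results of these data known. Named were all members called in a direction, or the 8 with the largest difference where more were called, the 8 largest on the newly transcribed arrays, the genes the rule lists by name, the highest-signal member of each role group, and genes whose probe sets disagree. Replicate numbers in the titles were not taken as pairs: deviations from group means of same-numbered arrays correlated between -0.07 and 0.1. Alternatives were other scalings, pseudocounts and filters, no intensity trend, a replicate block, a fit of the total and amplified arrays alone, the mean of a gene's probe sets, and leaving out each array.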

Additional observations from a re-analysis of the deposited data

Results flagged for a closer look

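For 13 chromatin probe sets the contralateral-minus-normal difference itself differed between amplified and total RNA, by limma's test of the difference. The amplified difference minus the total difference, on the log2 scale, was -2.92 for Atrx (1420947_at), -2.51 for Chd4 (1436343_at), -2.46 for Pbrm1 (1427266_at), -2.40 for Kmt2e (1427236_a_at) and -2.28 for Smarca2 (1452333_at). It was -1.86 for Kdm5a, -1.65 for Brd3 (1460328_at), -1.50 for Arid5b (1420973_at), -1.37 for a second Pbrm1 probe set (1426877_a_at) and -1.35 for Smarca4 (1426805_at). It was -1.32 for Brd2 (1437210_a_at), -1.30 for Kdm6a (1427672_a_at) and -0.87 for Arid2 (1426525_at). The adjusted p ran from 0.000208 for Pbrm1 to 0.0324 for Arid2. Kdm6a was the 1 of these that was not called lower in amplified RNA, where it read 6.09 and 6.03 on contralateral and 6.48 and 6.42 on normal arrays. Arid5b, an ARID-family DNA-binding protein, read 4.80 and 5.01 on contralateral and 5.57 and 5.85 on normal amplified arrays, and 5.56 and 5.35 on contralateral and 4.73 and 4.80 on normal total RNA arrays.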

How the results depend on the processing

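No call of a named member reversed under any alternative. In total RNA the 4 members called higher became 2 with median scaling, 0 without a filter and 2 with a filter at the 60th percentile, and 0 of the 4 calls held in every alternative. In amplified RNA the 1 called higher became 2 with 75th percentile scaling, with quantile normalization within each preparation and with the filter at the 60th percentile, and the 16 called lower became 9 with that filter, where 55 members were tested. That filter also gave 3 newly transcribed members at least 2-fold higher and 15 lower, and 7 lower in the difference of effects. By gene, the mean of probe sets gave 2 higher and 13 lower in amplified RNA. Of 17 amplified calls 8, and of 13 calls in the difference of effects 9, held in every alternative. Leaving out each array in turn gave 0 to 5 higher and 0 lower in total RNA, 1 to 2 higher and 8 to 18 lower in amplified RNA, 0 higher and 9 to 15 lower in the difference of effects, 22 to 27 higher and 26 to 32 lower for amplified against total RNA, and 25 to 30 higher and 4 to 7 lower for newly transcribed against amplified RNA. With the replicate number as a block, counts were 4 higher in total RNA, 1 higher and 15 lower in amplified RNA, and 14 lower in the difference of effects; the numbers are not known to pair mice. Where signal is dim, as for Chd4 at a deposited intensity of 2.7, the log2 difference depends on the pseudocount.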

Other observations

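Another 112 chromatin genes covered Polycomb, corepressor, acetyltransferase, sirtuin, other methyltransferase and partner, DNA methylation, remodelling and histone chaperone genes. Each was represented by its brightest probe set, and 78 were tested. By limma in total RNA 0 were called higher and 2 lower, where the background by brightest probe set was 1.41% and 0.398% of 8300 genes; at an unadjusted p under 0.05, 3 were higher and 7 lower. In amplified RNA 3 were higher and 4 lower (3.85% and 5.13%), near the background of 4.90% and 4.13%. On the newly transcribed arrays 7 were at least 2-fold higher and 15 lower (8.97% and 19.2%), where the background was 14.3% and 15.9%.

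Sap30, a subunit of the Sin3 corepressor, was lower in all 3 preparations. It read 8.43 and 8.25 on contralateral and 8.99 and 8.91 on normal total RNA arrays (difference -0.61 ± 0.13, limma adjusted p = 0.0461), and 7.84 and 8.14 on contralateral and 8.96 and 8.85 on normal amplified arrays (difference -0.92, adjusted p = 0.00153). On the newly transcribed arrays it read 6.97 in contralateral and 9.34 in normal kidneys, with no test.

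In limma's direct test of the amplified against the total effect, 0 of these 78 genes were called higher and 2 lower (2.56%). This is near the background by brightest probe set, 0.747% higher and 1.99% lower of 8300 genes. The 2 were Jarid2, a Polycomb partner (-0.81, adjusted p = 0.0288), and Bptf, the reader subunit of an ISWI complex (-1.1, adjusted p = 0.00434). Jarid2 read 8.07 and 8.42 on contralateral and 9.26 and 9.32 on normal amplified arrays, a difference of -1.04 (adjusted p = 0.000564), against -0.23 in total RNA. Bptf read 6.77 and 6.78 on contralateral and 7.74 and 7.69 on normal amplified arrays, a difference of -0.94 (adjusted p = 0.000726), against 0.15 in total RNA. Ruvbl2, a helicase of the INO80 and related complexes, was lower in contralateral total RNA by -0.70 (adjusted p = 0.0312) and differed by -0.08 in amplified RNA. Ezh1, Carm1 and Baz1b were the 3 called higher in amplified RNA.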
